A study of Mus musculus with 8 samples.

Results

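The genes described here encode selenoproteins of the endoplasmic reticulum (ER), of secretion and of the type first studied in muscle: *Selenok*, *Selenos*, *Selenom*, *Selenot*, *Selenof*, *Selenon*, *Selenop*, *Selenow*, *Selenoh* and *Selenoi*. They were chosen by name alone, by the newer or the older symbol of each gene, and no measured value entered the rule. Earlier results of these data were known when the choice was made. Of these 10 genes, 9 were analysed among the 23427 genes of the table, and *Selenot* was not analysed here. The table lists them by their older symbols *Selk*, *Vimp*, *Selm*, *Sep15*, *Sepn1*, *Sepp1*, *Sepw1*, *2700094K13Rik* and *Ept1*. By background knowledge *Selenow* is cytosolic and *Selenoh* nuclear, so the name of the group describes the other members better than these.

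The mRNA of wild-type (WT) C57BL/6J mouse primary oligodendrocyte precursor cells (OPCs) was profiled while they turned into oligodendrocytes (OLs), on 4 successive days named Day 0 to Day 3, with 2 libraries per day and 8 in all. According to the methods, the cells came from the pooled cortices of 3 pups at postnatal day 7 and were caught on a plate by an antibody against PDGFRα, after microglia and endothelial cells had been taken out on other plates. All cells grew in a defined medium that held sodium selenite, a source of selenium, and differentiation was started by leaving out the growth factor PDGF-AA and adding the thyroid hormone T3; Day 0 is the OPC before this change. The labels instead name a medium with serum, so the selenium supply of these cultures is not described in the same way by both sources. No condition other than the day was varied, and undifferentiated cultures of later days were not analysed here, so time in culture and differentiation cannot be told apart. The values are FPKM, that is, fragments scaled by the length of the transcript and by the mapped fragments of the library, which allows levels to be compared between genes.

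Selenoproteins carry selenocysteine, an amino acid that resembles cysteine with selenium in the place of sulfur. It is inserted at a UGA codon, which otherwise ends translation, when a stem-loop in the 3′ untranslated region, the SECIS element, recruits SECIS-binding proteins and a dedicated elongation factor. The ER members take part in the removal of misfolded proteins (*Selenos*, *Selenok*), in the folding of glycoproteins (*Selenof*), in redox and calcium control (*Selenom*, *Selenon*) and in the synthesis of phosphatidylethanolamine (*Selenoi*), a lipid that is abundant in myelin.

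Each member has a selenocysteine codon because the rule names selenoprotein genes, so this shared feature was fixed by the choice. The place of the codon differs among the members and is shown here as a description. The sequences below are the coding strand of the reference transcripts (GENCODE M21 on GRCm38, the mm10 build that the submitters name), with the selenocysteine codon in capitals and up to 12 bases on each side.
Selenok: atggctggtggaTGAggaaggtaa
Selenos: tcatctggcggcTGAaactaa
Selenoi: ccaaactcagatTGActaggaatggaa
Selenom: acctgtggaggaTGAcagttgaatcgc
Selenow: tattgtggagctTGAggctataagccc
Selenoh: cattgtacgagcTGAcgcgtgtacggc
Selenof: gaagtctgcggaTGAaaattggggagg
Selenon: gaccagtcctgcTGAggttccgggcgg
Selenop, the first codon: cttcaagccagcTGAtacttgtgtctt
Selenop, the last pair of codons: accaggaagTGAaaaTGAcattcaaac

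In *Selenok*, *Selenos* and *Selenoi* the selenocysteine lies near the end of the protein. It is residue 92 of 94 in *Selenok* (codon at chr14:29973440-29973442, plus strand, exon 4 of 5), residue 189 of 190 in *Selenos* (chr7:66088844-66088846, plus strand, exon 6 of 6) and residue 388 of 398 in *Selenoi* (chr5:30266964-30266966, plus strand, exon 10 of 10). All 3 encode membrane proteins of the ER. In *Selenom* (residue 48 of 145, chr11:3516273-3516275, plus strand, exon 2 of 5), *Selenow* (residue 13 of 88, chr7:15920464-15920466, minus strand, exon 2 of 6) and *Selenoh* (residue 38 of 123, chr2:84670381-84670383, minus strand, exon 2 of 4) a cysteine codon stands 3 codons before the selenocysteine codon, the arrangement of the active site of thioredoxin-like proteins. The cysteine codon stands 2 codons before it in *Selenof* (residue 93 of 162, chr3:144590645-144590647, plus strand, exon 3 of 5) and 1 codon before it in *Selenon* (residue 428 of 557, chr4:134542338-134542340, minus strand, exon 9 of 12). *Selenop*, which carries selenium in the blood and other body fluids, has 10 such codons. The first is residue 59 of 380 (chr15:3274848-3274850, plus strand, exon 2 of 5) with a cysteine codon 3 codons after it, and the other codons lie in exon 5. An mRNA level does not show at how many of these codons selenocysteine was inserted.

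The markers of the labelled cell type moved with the day, and the replicate series differed in astrocyte and neuron markers. The depth, read from the steps between low values, was about 945000 to 1530000 fragments per library and lowest on Day 3, so that a low gene rests on few fragments. Of the 6 OPC markers, 5 were lower on Day 3 than on Day 0 (4 lower and 1 higher with median ratio scaling), and all 7 OL markers were higher. From Day 0 to Day 3 limma called 0 astrocyte markers, with 0 at an unadjusted p under 0.05, but 2 as higher with the replicate number as a block (*Gfap* and *Aqp4*), where 1 neuron marker (*Snap25*) was also called lower. The summed level of the 7 astrocyte markers was 120 to 167 FPKM in the replicate 1 libraries and 354 to 952 FPKM in the replicate 2 libraries. The sum of the 7 neuron markers, most of it from *Tubb3*, was 64.4 to 233 FPKM in the replicate 1 libraries and 31.4 to 115 FPKM in the replicate 2 libraries. In limma's test of replicate 2 against replicate 1, 5 astrocyte markers and 1 OL marker were higher, and 1 OPC marker and 1 neuron marker were lower. All 6 microglia markers were at 0 in every library, and the sums over the endothelial and the mural cell markers stayed at or below 0.428 and 0.339 FPKM. The cells were measured in bulk, so fewer cells of a type and less RNA per cell cannot be told apart.

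The 9 selenoprotein genes did not move as a group. From Day 0 to Day 3, 2 of the 9 rose (*Selenok* and *Selenoi*) and 2 fell (*Selenom* and *Selenoh*) in limma's test on log2(FPKM + 1), at a Benjamini-Hochberg adjusted p under 0.05 over the 12208 genes tested. Among all genes tested, 12% were called higher and 26.3% lower. The split of the members depended on the scaling: 4 rose and 2 fell with median ratio scaling, which added *Selenof* and *Selenos*, and 4 rose and 2 fell with quantile normalization, which added *Selenof* and *Selenow*. With the replicate number as a block, 1 rose (*Selenoi*) and 2 fell. The median change of the 9 members was 0.14 on the log2 scale, and that of all genes tested was -0.31. With median ratio scaling the median of all genes was -0.04, and the split of all calls moved from 1460 higher and 3207 lower to 2135 higher and 2047 lower. Changes of the members are also given relative to the median of all genes.

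From Day 0 to Day 1, 3 members rose (*Selenok*, *Selenon* and *Selenoi*) and *Selenoh* fell, against 5.04% of all genes called higher and 7.56% called lower. Of these 4 calls, only that of *Selenoh* was left without either library of Day 0, without replicate 2 of Day 1 or without a trend in limma's eBayes step. From Day 1 to Day 2 the only member called was *Selenoh*, which fell again, against 2.16% of all genes called higher and 1.73% called lower; with the replicate number as a block *Selenom* was called as well. From Day 2 to Day 3 limma called 0 of the 9, with 2 at an unadjusted p under 0.05, and only 0.246% of all genes were called higher and 0.0491% lower. Day 3 was also set against Day 1, a comparison added after the values were seen: *Selenon*, *Selenom* and *Selenoh* were lower on Day 3, and no member was higher, against 7.04% of all genes called higher and 12.2% called lower. With median ratio scaling 1 member was higher (*Selenof*, 0.55, adjusted p = 0.0203) and 2 were lower, and with quantile normalization 1 was higher and 3 were lower. Over the 4 days together (limma's F test), 5 of the 9 varied, namely *Selenok*, *Selenom*, *Selenon*, *Selenoh* and *Selenoi*, against 35.2% of all genes.

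**Figure D1:**
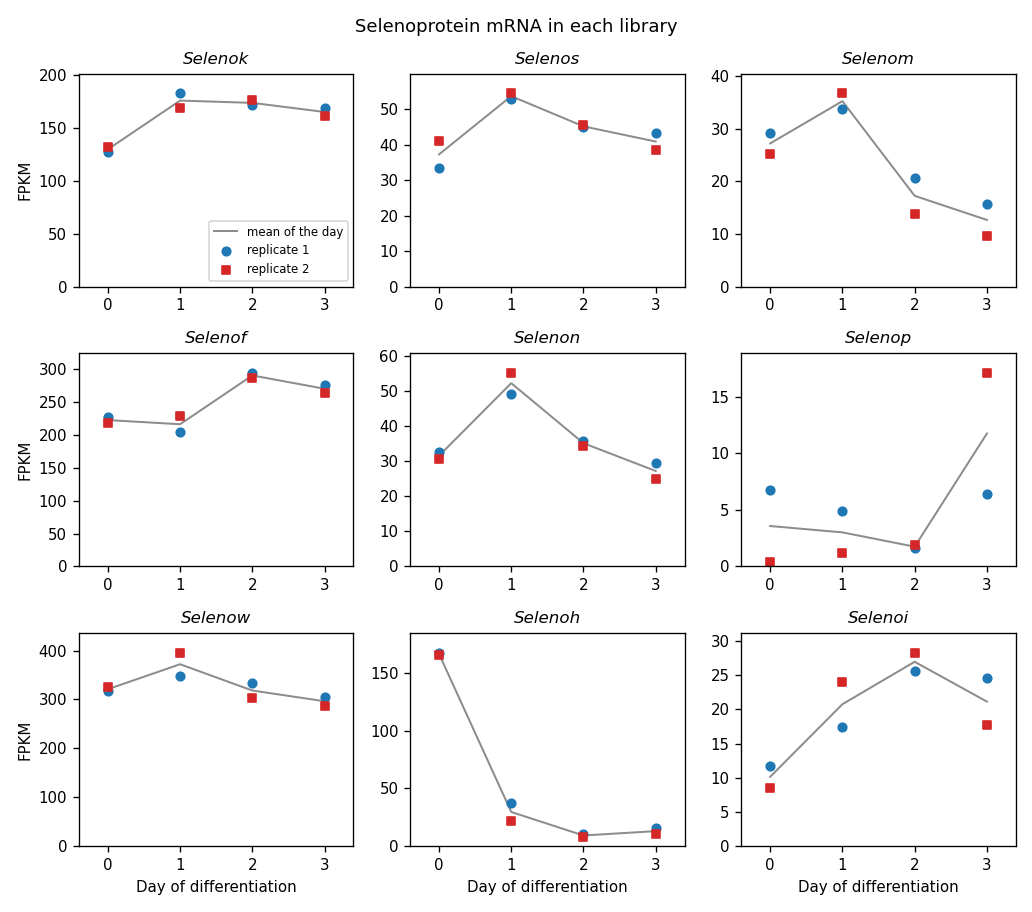
FPKM of each of the 9 genes (vertical axes, each from 0) on Day 0 to Day 3 (horizontal axes), with a circle for replicate 1, a square for replicate 2 and a line through the means of the days. *Selenoh* falls from 167 and 165 FPKM on Day 0 to 15.4 and 10.8 FPKM on Day 3, *Selenon* and *Selenos* are highest on Day 1, and the replicates of *Selenop* lie far apart on all days but Day 2.

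**Figure D2:**
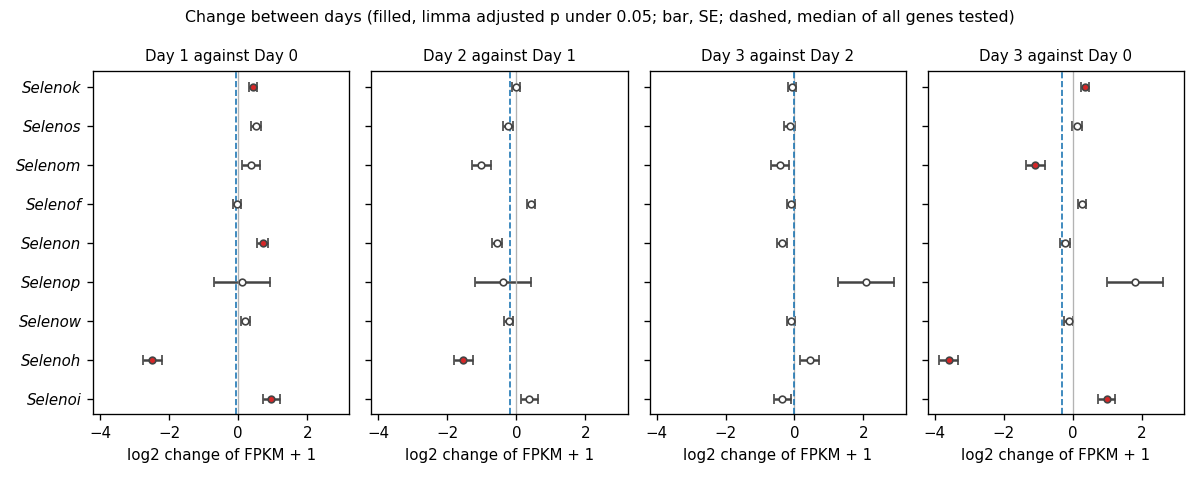
Change of log2(FPKM + 1) between days (horizontal axes) for each gene, with the SE as a bar. Filled points passed limma's test at an adjusted p under 0.05, and the dashed line marks the median of the 12208 genes tested, which was -0.31 for Day 3 against Day 0. No point is filled for Day 3 against Day 2.

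*Selenoh*, a small nuclear and nucleolar protein with a thioredoxin-like fold, showed the steepest fall of the 9. It stood at 167 and 165 FPKM on Day 0, at 37.2 and 22.0 FPKM on Day 1, at 10.9 and 7.74 FPKM on Day 2 and at 15.4 and 10.8 FPKM on Day 3. Both Day 0 libraries were above all later libraries, and both Day 1 libraries were above those of Day 2 and Day 3, while Day 2 and Day 3 overlapped. The mean of Day 0 (166 ± 1.67 FPKM, SD, n = 2) was 12.7-fold that of Day 3 (13.1 ± 3.29 FPKM, n = 2), and the fitted change was -3.59 on the log2 scale (SE 0.28, limma adjusted p = 9.47e-05) and -3.28 when the median change of all genes was subtracted. The fall was -2.50 by Day 1 (SE 0.28, limma adjusted p = 0.0013) and a further -1.54 by Day 2 (limma adjusted p = 0.0264). The first of these falls and that over the 3 days passed the test in every alternative tried. The fall from Day 1 to Day 2 did not pass without either library of Day 0 or of Day 2 or without replicate 1 of Day 1 (adjusted p from 0.0529 to 0.192). Day 3 against Day 1 gave -1.09 (limma adjusted p = 0.0288), but 0.0536 with median ratio scaling and 0.0634 to 0.159 without a library of Day 0, without replicate 1 of Day 1 or without replicate 2 of Day 3. At the end of the course the gene rested on 4 to 8 fragments in the shallowest library. The number depends on which of its annotated transcripts with a selenocysteine codon the authors' gene model used. From Day 2 to Day 3 the change was 0.45, with a 95% interval from -0.19 to 1.08 (limma adjusted p = 0.516), and it was 0.47 and 0.43 within the replicate numbers. The annotation places *Gm28635* over *Selenoh* on the same strand, but no stretch of 75 bases, the read length, is shared between their transcripts.

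The genes whose level followed that of *Selenoh* most closely over the 8 libraries were, by Pearson's r of log2(FPKM + 1), *Psma6* (a proteasome subunit), *H2afz* (a histone variant), *Cyb5r4* (a reductase), *Pou3f2* and *Sall3* (transcription factors), with r between 0.993 and 0.997. *H2afz* went from a mean of 451 FPKM on Day 0 to 76.3 FPKM on Day 3, *Pou3f2* from 16.7 to 2.86 FPKM and *Sall3* from 50.1 to 5.70 FPKM. *Psma6* fell less, from 122 to 78.1 FPKM, as r does not depend on the size of a change. With only 4 days behind these r, they describe a shared time course and carry no test.

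*Selenoi*, the ethanolamine phosphotransferase that makes phosphatidylethanolamine in the last step of the Kennedy pathway, rose on the first day and was still higher on Day 3. Its level was 11.7 and 8.55 FPKM on Day 0, 17.5 and 24.0 FPKM on Day 1, 25.6 and 28.3 FPKM on Day 2 and 24.5 and 17.7 FPKM on Day 3. No later library overlapped with Day 0, and Day 1 and Day 3 overlapped with each other. The mean of Day 3 (21.1 ± 4.79 FPKM, SD, n = 2) was 2.08-fold that of Day 0 (10.1 ± 2.26 FPKM, n = 2), a change of 0.99 on the log2 scale (SE 0.24, limma adjusted p = 0.0137). Relative to the median of all genes the change was 1.30. By Day 1 it was already 0.96 (SE 0.24, limma adjusted p = 0.0364). The call over the 3 days was lost without replicate 2 of Day 0 (adjusted p = 0.0988) or replicate 1 of Day 3 (0.0754), and that of Day 1 without either library of Day 0 or Day 2 or without replicate 2 of Day 1 (0.0606 to 0.225).

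The other genes of the Kennedy pathway and its neighbours were read from a list of 13, of which 12 were tested. From Day 0 to Day 3, 3 rose and 0 fell in limma's test (4 and 1 at an unadjusted p under 0.05). This stood against 12% of all genes called higher and 26.3% called lower. The median change of the 12 was -0.01 on the log2 scale. With median ratio scaling 5 rose, *Chka* (0.66, adjusted p = 0.0354) and *Ptdss2* (0.82, adjusted p = 0.0115) being added, and with the replicate number as a block 4 rose, with *Ptdss2* added (0.0469 in place of 0.0525). The steepest was *Pcyt2*, the enzyme that makes CDP-ethanolamine, the substrate of *Selenoi*: it was 44.0 and 56.1 FPKM on Day 0 and between 155 and 225 FPKM in all 6 later libraries, a change of 1.82 by Day 3 (limma adjusted p = 0.00037) and of 1.84 by Day 1 (adjusted p = 0.0013). *Cept1*, which makes both phosphatidylethanolamine and phosphatidylcholine in the ER, rose from 5.64 and 6.17 FPKM to 12.8 and 12.9 FPKM (log2 change 1.00, adjusted p = 0.0069). *Etnk1*, the kinase of the first step, rose from 31.3 and 35.3 FPKM to 51.2 and 60.7 FPKM (0.73, adjusted p = 0.0085), a call that was lost without replicate 1 of Day 0 (0.0644) or replicate 2 of Day 3 (0.0529). Of the genes on the choline side, *Chka*, *Chkb*, *Pcyt1a*, *Pcyt1b* and *Chpt1* changed by -0.34 to 0.36 and did not pass the test on the deposited scale.

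*Selenok*, an ER membrane protein that binds the palmitoyltransferase *Zdhhc6* in the control of the calcium channel IP3 receptor, was higher on every later day. It stood at 127 and 132 FPKM on Day 0, 183 and 168 FPKM on Day 1, 171 and 176 FPKM on Day 2 and 168 and 161 FPKM on Day 3. All later libraries were above both of Day 0 and close to each other. The change was small, 0.43 by Day 1 (SE 0.12, limma adjusted p = 0.0448) and 0.35 by Day 3 (SE 0.12, limma adjusted p = 0.0458), a ratio of the means of 1.27. Relative to the median of all genes the change by Day 3 was 0.66. The calls lay at the edge of the threshold: with the replicate number as a block the adjusted p by Day 3 was 0.0517, and that over the 4 days was 0.0544 in place of 0.0486. The call by Day 3 was also lost without any 1 library of Day 0, Day 2 or Day 3 (adjusted p from 0.0662 to 0.182) and that by Day 1 without any 1 library of Day 0, Day 1 or Day 2 (0.0718 to 0.211). With median ratio scaling the change by Day 3 was 0.66 (adjusted p = 0.0033). Reads of *Selenok* can be split with copies: 8.75% of the 75-base stretches of its transcripts also occur in 3 other annotated genes, among them the pseudogenes *Selenok-ps1* and *Selenok-ps8*.

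The calcium list held 15 genes, of which 9 were tested. The calcium channels *Ryr1*, with which *Selenon* works in muscle, *Ryr2* and *Ryr3* were at or below 0.238 FPKM in every library. By Day 3, 2 genes rose and 3 fell (3 and 1 with median ratio scaling). Among all genes tested, the shares were 12% higher and 26.3% lower. The median of the list was -0.52. *Itpr2*, an IP3 receptor, went from 11.7 and 13.7 FPKM on Day 0 to 55.4 and 90.8 FPKM on Day 1, 103 and 114 FPKM on Day 2 and 43.8 and 65.9 FPKM on Day 3 (log2 change by Day 3 2.00, limma adjusted p = 0.00074). *Stim1*, the sensor of calcium in the ER lumen, rose from 6.33 and 9.04 FPKM to 30.5 and 40.3 FPKM (2.07, adjusted p = 0.0003). *Orai1*, the plasma membrane channel that *Stim1* opens, fell from 12.5 and 15.7 FPKM to 1.67 and 6.86 FPKM (-1.71, adjusted p = 0.0186; 0.0561 to 0.112 without a library of Day 0 or replicate 2 of Day 3, and 0.0671 with only the days compared in the fit). *Stim2* (-0.74, adjusted p = 0.0477) and *Zdhhc6* (-0.71, adjusted p = 0.0388) passed narrowly and did not with median ratio scaling (0.186 and 0.24). Their calls were also lost without any library of Day 0 or Day 1 or without replicate 1 of Day 3, and that of *Stim2* without replicate 2 of Day 3 (adjusted p from 0.0542 to 0.248).

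*Selenon*, an ER protein that senses luminal calcium, acts on the SERCA pump and is mutated in a congenital myopathy, peaked on Day 1. It was 32.5 and 30.5 FPKM on Day 0, 49.2 and 55.2 FPKM on Day 1, 35.7 and 34.4 FPKM on Day 2 and 29.5 and 24.8 FPKM on Day 3. Both Day 1 libraries were above all others, and those of Day 3 were below all others. The rise by Day 1 was 0.71 on the log2 scale (SE 0.15, limma adjusted p = 0.0178), or 1.66-fold, and the later fall from Day 1 to Day 3 was -0.92 (SE 0.15, limma adjusted p = 0.0055), which passed in every alternative tried. The rise was not called without a library of Day 0 or without replicate 2 of Day 1 (adjusted p from 0.0867 to 0.123). Day 3 and Day 0 did not differ in the test: the change was -0.21, with a 95% interval from -0.55 to 0.13, and it was 0.10 with median ratio scaling. The pump gene *Atp2a2* was 101 and 109 FPKM on Day 0 and 118 and 129 FPKM on Day 3 (0.23, limma adjusted p = 0.167), and it was called with median ratio scaling (0.55, adjusted p = 0.0148).

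*Selenos*, which ties the retrotranslocation machinery of ER-associated degradation to the ATPase *Vcp*, was also highest on Day 1, with values of 33.4 and 41.1 FPKM on Day 0, 52.7 and 54.5 FPKM on Day 1, 44.8 and 45.4 FPKM on Day 2 and 43.1 and 38.6 FPKM on Day 3. The Day 1 libraries were the highest of the 8, and Day 3 overlapped with Day 0. The change by Day 1 was 0.52 (SE 0.15) and missed the threshold (limma adjusted p = 0.055), while it passed with each of the other scalings and with a filter on low values of 10 FPKM (0.0292 to 0.0449). Over the 3 days the change was 0.14, with a 95% interval from -0.20 to 0.47. With median ratio scaling that change was 0.44 (adjusted p = 0.0481).

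All 25 genes of the list for ER-associated degradation were tested. By Day 3, 2 rose and 0 fell in limma's test (5 and 0 at an unadjusted p under 0.05). Of all genes tested, 12% were called higher and 26.3% lower. The median of the list was 0.12, on the other side of 0 from that of all genes. The count depended on the processing: 8 rose and 0 fell with median ratio scaling, which added *Syvn1*, *Edem2*, *Os9*, *Ufd1*, *Ubxn8* and *Rnf5* (adjusted p from 0.0085 to 0.047), and 4 rose with the replicate number as a block, which added *Syvn1* (0.0458) and *Os9* (0.0356). Over the 12208 genes tested, 2135 were higher and 2047 lower with median ratio scaling, and 1617 and 3551 with the block. *Derl1*, a channel component and partner of *Selenos*, went from 17.6 and 21.6 FPKM to 33.5 and 35.9 FPKM (0.80, limma adjusted p = 0.0093), and *Edem1*, which marks misfolded glycoproteins for removal, from 6.54 and 10.0 FPKM to 18.3 and 18.4 FPKM (1.09, adjusted p = 0.0109). Without replicate 2 of Day 0 both calls were lost (0.0725 and 0.0811). *Vcp* itself was at 285 and 292 FPKM on Day 0 and 242 and 258 FPKM on Day 3 (-0.21, adjusted p = 0.188).

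*Selenom*, a soluble ER protein with a thioredoxin-like fold, went down after Day 1. It stood at 29.2 and 25.2 FPKM on Day 0, 33.7 and 36.8 FPKM on Day 1, 20.7 and 13.8 FPKM on Day 2 and 15.8 and 9.58 FPKM on Day 3. The Day 1 libraries were the highest, and all libraries of Day 2 and Day 3 were below those of Day 0. The change by Day 3 was -1.08 (SE 0.27, limma adjusted p = 0.0136), and -0.77 when the median change of all genes was subtracted, and from Day 1 to Day 3 it was -1.44 (SE 0.27, limma adjusted p = 0.0088). Between Day 1 and Day 2 it changed by -1.01, which missed the threshold (limma adjusted p = 0.076) but passed with the replicate number as a block (0.0332). The fall by Day 3 was not called without a library of Day 0 or without replicate 2 of Day 3 (0.0537 to 0.0903), nor that from Day 1 without replicate 2 of Day 1 or of Day 3 (0.0522 and 0.0523). In replicate 2 of Day 3 the gene rested on about 6 fragments.

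*Selenof*, which binds the glucosyltransferase *Uggt1* in the folding control of glycoproteins, was the second most abundant member. It was 227 and 218 FPKM on Day 0, 204 and 228 FPKM on Day 1, 294 and 286 FPKM on Day 2 and 276 and 264 FPKM on Day 3. The libraries of Day 2 and Day 3 were all above those of Day 0 and Day 1. The change from Day 1 to Day 2 was 0.43 (SE 0.12, limma adjusted p = 0.0904) and that from Day 0 to Day 3 was 0.28 (SE 0.12, limma adjusted p = 0.1), so neither passed. With median ratio scaling both did, at 0.62 (adjusted p = 0.0331) and 0.59 (adjusted p = 0.0073), so the call of *Selenof* depends on how the libraries are scaled. The list of glycoprotein folding genes around it held 10. By Day 3, 0 rose and 3 fell in limma's test (0 and 4 at an unadjusted p under 0.05). Their median was -0.49, and of all genes tested 12% were called higher and 26.3% lower. *Calr* (calreticulin) went from 379 and 388 FPKM on Day 0 through 537 and 616 FPKM on Day 1 to 217 and 223 FPKM on Day 3 (-0.80, adjusted p = 0.0023). *Uggt2* fell by 1.17 (adjusted p = 0.015) and *Mogs*, a glucosidase, by 1.11 (adjusted p = 0.0148); both calls were lost without replicate 1 of Day 0 (0.0577 and 0.109) or replicate 2 of Day 3 (0.0759 and 0.0531), and that of *Uggt2* without replicate 2 of Day 0 (0.0974). With quantile normalization all 3 calls were lost (*Calr* -0.43, adjusted p = 0.0721; *Uggt2* 0.0661; *Mogs* 0.1003). *Uggt1* did not pass (-0.36, adjusted p = 0.138).

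*Selenow*, a small cytosolic protein abundant in muscle and brain, had the highest level of the 9 on each day. It was 317 and 325 FPKM on Day 0, 348 and 396 FPKM on Day 1, 333 and 304 FPKM on Day 2 and 306 and 287 FPKM on Day 3. The Day 1 libraries were the highest and those of Day 3 were below both of Day 0. No comparison of days passed the test: the change by Day 1 was 0.21 (limma adjusted p = 0.346) and that by Day 3 was -0.12, with a 95% interval from -0.41 to 0.18 (adjusted p = 0.506). The direction by Day 3 turned with the other scalings, to 0.04 with libraries of the same sum, 0.20 with median ratio scaling and 0.40 with quantile normalization, which passed the test (adjusted p = 0.0477).

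The levels of the 9 genes can be set side by side because FPKM corrects for length, but the transcript behind each value is not given. Among annotated transcripts with a selenocysteine codon and a stop codon, those of *Selenoh* range from 390 to 783 nt and those of *Selenof* from 1178 to 1514 nt. The place of a gene in the order can thus depend on the gene model. On Day 0 the order of the means was *Selenow* (321 FPKM), *Selenof* (222 FPKM), *Selenoh* (166 FPKM) and *Selenok* (129 FPKM), then *Selenos* (37.2 FPKM), *Selenon* (31.5 FPKM) and *Selenom* (27.2 FPKM), then *Selenoi* (10.1 FPKM) and *Selenop* (3.57 FPKM), and no neighbours overlapped. On Day 1 *Selenos* overlapped with *Selenon*, and *Selenoh* overlapped with *Selenom* above it and *Selenoi* below it, while on Day 2 no neighbours overlapped. On Day 3 the order began with *Selenow* (296 FPKM), *Selenof* (270 FPKM) and *Selenok* (165 FPKM) and went on to *Selenos* (40.8 FPKM), *Selenon* (27.2 FPKM) and *Selenoi* (21.1 FPKM). *Selenoh* (13.1 FPKM), *Selenom* (12.7 FPKM) and *Selenop* (11.7 FPKM) came last, and these 3 overlapped. The summed level of the 9 went from 952 and 945 FPKM on Day 0 to 885 and 831 FPKM on Day 3, and the share of it from *Selenow*, *Selenof* and *Selenok* went from 70.5% and 71.3% to 84.8% and 85.7%. These sums are on the deposited scale. Median ratio scaling divides each library by a factor, 1.14 in both Day 0 libraries and 0.937 and 0.888 on Day 3. With these factors the sum is higher on Day 3 than on Day 0, while the shares stay the same. *Selenoh* made up 17.6% and 17.5% of the sum on Day 0 and 1.74% and 1.30% on Day 3.

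**Figure D3:**
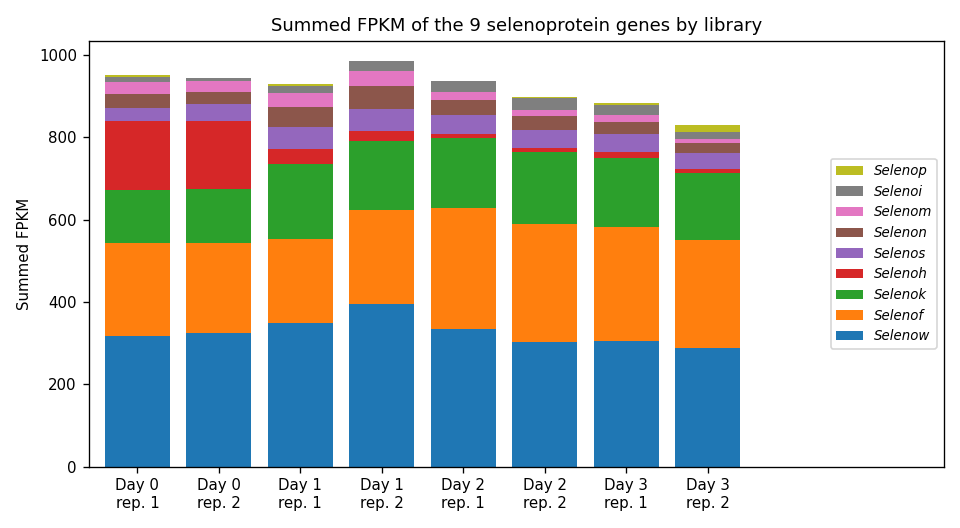
Summed FPKM of the 9 genes in each library (vertical axis, from 0), with a coloured segment per gene. The segment of *Selenoh* shrinks from 17.6% and 17.5% of the bar on Day 0 to 1.74% and 1.30% on Day 3, and the bars end between 831 and 986 FPKM.

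*Selenop* was the lowest member on Day 0, Day 1 and Day 2 and had the widest spread between replicates of the 9, with an SE of 0.81 on the log2 scale against 0.12 to 0.28 for the others. The values were 6.74 and 0.405 FPKM on Day 0, 4.86 and 1.17 FPKM on Day 1, 1.63 and 1.87 FPKM on Day 2 and 6.38 and 17.1 FPKM on Day 3. At the estimated depth these are about 21 and 1, 12 and 3, 4 and 5, and 14 and 33 fragments. Replicate 1 was the higher library on Day 0 and Day 1 and replicate 2 the higher on Day 3. The change from Day 0 to Day 3 was 1.81 on the log2 scale (limma adjusted p = 0.114), and within the replicate numbers it was -0.07 and 3.69. Without replicate 1 of Day 0 it was 3.04 and passed the test (adjusted p = 0.0286). Against Day 2 the Day 3 libraries did not overlap and the change was 2.07 (limma adjusted p = 0.297).

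Astrocytes are among the brain cells known to express *Selenop*, and the replicate series differed in astrocyte markers. The sum of the 7 astrocyte markers was 120, 167, 131 and 148 FPKM in replicate 1 on Day 0 to Day 3, and 354, 522, 641 and 952 FPKM in replicate 2. *Gfap*, the highest of them in replicate 2, went from 154 to 603 FPKM there. The library with the most *Selenop*, replicate 2 of Day 3, was also that with the highest astrocyte sum, but replicate 2 of Day 0 had 0.405 FPKM of *Selenop* beside an astrocyte sum of 354 FPKM, and replicate 1 of Day 0 had 6.74 FPKM beside 120 FPKM. The part of these cells in the level of *Selenop* was not tested. In limma's test of replicate 2 against replicate 1, 0 of the 9 members were called, with 1 (*Selenoh*, -0.42) at an unadjusted p under 0.05, against 0.68% of all genes called higher and 0.369% lower, while 5 of the 7 astrocyte markers were higher in replicate 2. The reference annotation places *Ccdc152* over *Selenop* on the opposite strand, and 12.7% of the 75-base stretches of *Selenop* lie in it. *Ccdc152* was at 0 in every library. How counting assigned reads of the shared stretches is not given, and their part in the *Selenop* value was not tested.

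**Figure D4:**
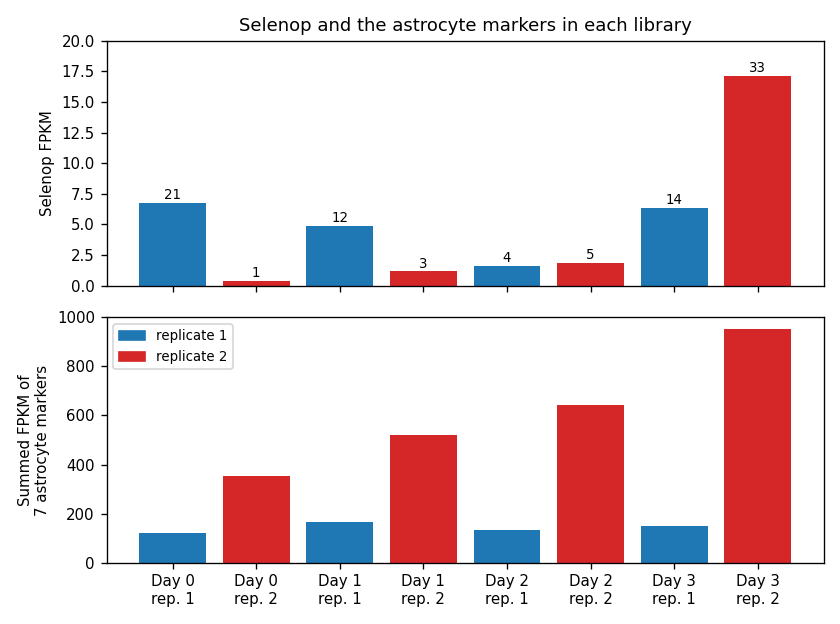
*Selenop* FPKM (upper panel, with the estimated number of fragments above each bar) and the summed FPKM of 7 astrocyte markers (lower panel) in each library, both axes from 0. Replicate 2 of Day 3 has the highest value in both panels, at 17.1 and 952 FPKM, while replicate 2 of Day 0 has 0.405 FPKM of *Selenop* beside 354 FPKM.

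The 4 genes nearest to *Selenop* in Pearson's r over the 8 libraries were *Mipep*, *Rassf4*, *Steap3* and *AI464131* (r from 0.919 to 0.934), which like *Selenop* had higher means on Day 3 than on Day 0. *Steap3* had means of 0.976 and 2.92 FPKM and *Rassf4* of 1.195 and 1.812 FPKM, which are low levels. *Selenop* itself rested on about 1 to 33 fragments per library and changed by -0.07 within replicate 1. These r are a description and carry no test.

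The receptors that take up *Selenop* and the enzyme that recycles selenium were read from a list of 4. *Lrp8*, the receptor for *Selenop* in the brain, fell from 13.7 and 14.7 FPKM on Day 0 to 6.87 and 7.03 FPKM on Day 3 (-0.93, limma adjusted p = 0.009; 0.0649 without replicate 2 of Day 0 and 0.057 with quantile normalization). *Lrp1*, a receptor of many ligands, fell from 54.3 and 57.2 FPKM to 11.8 and 16.2 FPKM (-1.94, adjusted p = 0.0022). *Lrp2*, the receptor of the kidney, stayed at or below 0.253 FPKM and was not tested. *Scly*, the lyase that frees selenium from selenocysteine, rose from 6.28 and 7.68 FPKM to 11.8 and 14.1 FPKM (0.81, adjusted p = 0.0324), a call lost without any library of Day 0 or Day 3 (0.0636 to 0.162) or with only the days compared in the fit (0.0506). Of the 3 genes tested, 1 thus rose and 2 fell, against 12% of all genes called higher and 26.3% called lower.

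The other selenoprotein genes are mostly peroxidases and reductases. Of 14 on that list, 9 passed the filter on low values and were tested. By Day 3, 1 rose and 5 fell (1 and 3 with median ratio scaling). Of all genes tested, 12% were called higher and 26.3% lower. The median of the list was -0.70 beside 0.14 for the 9 members, and the difference between the medians was not tested. *Gpx3*, the secreted glutathione peroxidase, was 29.0 and 34.4 FPKM on Day 0 and 1.21 and 2.06 FPKM on Day 3 (-3.65, limma adjusted p = 0.00038), beside -3.59 for *Selenoh*. *Txnrd1*, the cytosolic thioredoxin reductase, fell from 117 FPKM in both libraries to 48.6 and 51.0 FPKM (-1.22, adjusted p = 0.0002). *Txnrd3* went from 1.61 and 2.61 FPKM to 0 and 0.368 FPKM, which is within a few fragments (adjusted p = 0.0197, lost without replicate 2 of Day 0 at 0.115 or replicate 1 of Day 3 at 0.084, or with quantile normalization at 0.0769). *Gpx4*, the lipid hydroperoxidase, was the only one that rose, from 73.1 and 115 FPKM to 182 and 222 FPKM (1.12, adjusted p = 0.0063).

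In the list for selenocysteine incorporation 12 of 12 genes were tested, with 1 risen and 5 fallen by Day 3 and a median of -0.58. It was 1 and 4 with median ratio scaling and, with *Sars1* (0.0244) added, 1 and 6 with the replicate number as a block. Among all genes tested, 12% were called higher and 26.3% lower on the deposited scale. The gene that rose, *Secisbp2l*, binds SECIS elements but is described by the study as unable to bring about the insertion of selenocysteine itself. The study also cites work that ties it to OL differentiation by way of the synthesis of the selenoprotein DIO-2. *Dio2* mRNA was 0 and 0.420 FPKM on Day 0 and 0.631 and 2.33 FPKM on Day 3 (0.97, limma adjusted p = 0.122). These levels are low and rest on few fragments, and an mRNA level does not show how much of the protein is made. *Secisbp2l*, which the study is about, rose from 31.9 and 34.8 FPKM to 315 and 357 FPKM (3.29, limma adjusted p = 4.78e-05). Its paralog *Secisbp2* was 11.2 and 12.6 FPKM on Day 0 and 8.96 and 11.0 FPKM on Day 3 (-0.23, limma adjusted p = 0.382). With median ratio scaling the change of *Secisbp2* was 0.06 (limma adjusted p = 0.856). *Eefsec*, the elongation factor for selenocysteine, fell from 10.5 and 13.7 FPKM to 2.73 and 5.82 FPKM (-1.36, adjusted p = 0.0216), a call lost without a library of Day 0 or replicate 2 of Day 3 (0.0668 to 0.133) or with quantile normalization (0.0646). *Ncl* (nucleolin), which binds SECIS elements, fell by 1.22 (adjusted p = 0.0006). *Pstk*, the kinase that acts on the selenocysteine tRNA, was 6.93 and 10.8 FPKM on Day 0 and 1.85 and 4.06 FPKM on Day 3, and its call (-1.35, adjusted p = 0.0495) was lost in 13 of 17 alternatives, among them the omission of any library of Day 0 or Day 2 or of replicate 2 of Day 3 (0.0502 to 0.241).

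**Figure D5:**
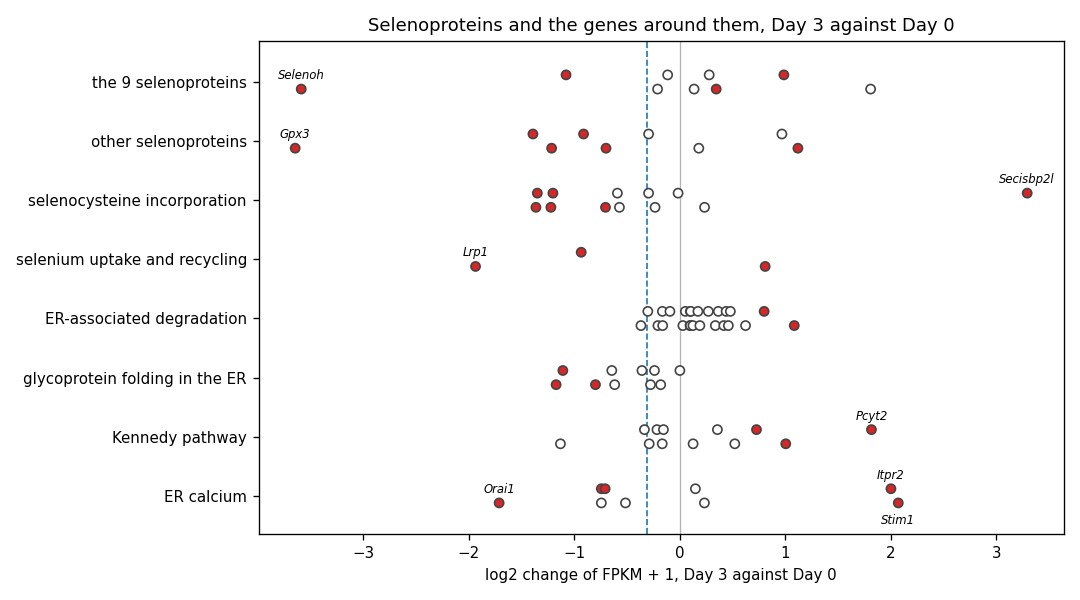
Change of log2(FPKM + 1) from Day 0 to Day 3 (horizontal axis) of each tested gene of 8 lists (rows). Filled points passed limma's test at an adjusted p under 0.05, the dashed line is the median of all genes tested (-0.31), and genes that were called with a change beyond 1.5 are named. *Selenoh* at -3.59 and *Gpx3* at -3.65 lie farthest to the left and *Secisbp2l* at 3.29 farthest to the right, and 2 points of ER-associated degradation are filled.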

How the data were processed

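The 8 mRNA-seq libraries were grouped by the time label. The authors made stranded, 75-nt paired-end libraries, used OmicSoft ArrayStudio and deposited FPKM per gene, with replicates not pooled; the submitters' notes name the mm10 build, and the aligner, the gene model and the use of strand in counting are not given in the sources used here. DESeq2, which the methods name, needs counts and was not used. The methods describe the replicates of cultured OPCs as independent, and the study's figure legend speaks of independent experiments. Neither states which animals stand behind each library, so p-values measure the spread between these libraries.

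Genes with at least 1 FPKM in at least 2 libraries (12208) were tested on log2(FPKM + 1) with limma 3.58.1 (eBayes with a trend) in R 4.3.3, with the day as a factor over the 8 libraries and Benjamini-Hochberg adjustment over all genes tested. This scale understates the change of low genes. Intervals are 95% intervals of the fit. The fit was tested on simulated data with known changes. The simulated noise was independent between libraries, so this did not cover replicates that deviate together. Python 3.11.15, pandas 2.3.3, numpy 2.4.6, scipy 1.17.1 and matplotlib 3.10.9 did the rest. Same-numbered replicates deviated together (r of the replicate differences 0.16 to 0.29 over the 6 pairs of days, each over 0.1); the pairing comes from these values, not from the labels, and the fit with this block is given where it changes a call of the members or the number called in a gene list.

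Depth was estimated from the steps between low values, of which 66.2% to 70.5% per library lay within 0.1 of a whole number of fragments; this was too few to recover counts, and fragment numbers are estimates. Selenocysteine codons are those that GENCODE M21 annotates as selenocysteine, and each was checked to be an in-frame TGA codon.

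Members and lists were chosen with earlier results of these data known. Named are all members, up to 3 called genes of each list in each direction with the largest change from Day 0 to Day 3, *Secisbp2*, *Secisbp2l* and *Gpx4*, and the 5 genes most like the members with the highest and the lowest change, of which 1 is not reported here; other genes were named after their values were seen. Alternatives were a pseudocount of 0.1, no filter (15267 genes), a filter of 10 FPKM in 1 library (8202 genes), 3 scalings, the block, eBayes without a trend, fitting only the days compared, and leaving out 1 library at a time.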

Additional observations from a re-analysis of the deposited data

How the results depend on the processing

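The number of members called was within 1.5 times its value in every alternative, other than a library left out, for Day 3 against Day 0, Day 3 against Day 1 and the 4 days together, while the split into higher and lower calls moved with the scaling. For Day 1 against Day 0 the 4 calls became 1 without a trend in eBayes and 2 with only the days compared in the fit. For Day 2 against Day 1 the 1 call became 0 without the filter, 0 without a trend, 0 with only the days compared, 2 with median ratio scaling and, with the replicate number as a block (the pairing), 2. The block moved no other number of called members by over 1.5 times, and the only calls of the members it changed are those of *Selenok* and *Selenom* given above. With each library left out in turn the number of called members ran from 1 to 4 for Day 3 against Day 0, 1 to 4 for Day 1 against Day 0, 0 to 1 for Day 2 against Day 1, 1 to 3 for Day 3 against Day 1 and 3 to 4 for the 4 days, with the lowest without replicate 2 of Day 0 for the first, without replicate 2 of Day 0 or of Day 1 for the last, without either library of Day 0 or replicate 2 of Day 1 for the second, and without replicate 2 of Day 3 for the fourth. Without a trend *Selenok*, *Selenon* and *Selenoi* lost their calls for Day 1 against Day 0, *Selenok* lost that for Day 3 against Day 0 and *Selenoh* lost those for Day 2 or Day 3 against Day 1 (limma adjusted p from 0.0528 to 0.152). A fit with a library left out has fewer libraries, and the estimate can move as well: *Selenom* from Day 0 to Day 3 was -1.08 in all libraries and -0.75 without replicate 2 of Day 3.

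Directions that turned were those of small or uncalled changes. *Selenow* from Day 0 to Day 3 was 0.04 with libraries of the same sum, 0.20 with median ratio scaling and 0.40 with quantile normalization (limma adjusted p = 0.0477). *Selenon* over the same days was 0.10 with median ratio scaling. *Selenof* from Day 0 to Day 1 was 0.0446 with libraries of the same sum and 0.0408 with median ratio scaling, and -0.12 to 0.0358 with a library left out. *Selenos* from Day 0 to Day 3 ranged from -0.0098 to 0.28 and *Selenop* from Day 0 to Day 1 from -1.12 to 1.34 with a library left out. The causes were not tested.

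Over all genes, the 475 calls of Day 2 against Day 1 became 247 without the filter, 803 with the block, 121 without a trend, 0 with only the days compared and 11 to 445 with a library left out. The 36 calls of Day 3 against Day 2 became 8 with a pseudocount of 0.1, 163 with the block, 0 without the filter, 0 without a trend, 0 with only the days compared and 0 to 223 with a library left out. With a library left out the calls ran from 2769 to 4548 for Day 3 against Day 0 (4667 in all libraries), 583 to 1585 for Day 1 against Day 0 (1538), 887 to 2138 for Day 3 against Day 1 (2344, and 846 with only the days compared) and 2100 to 3992 for the 4 days (4292). Replicate 2 against replicate 1 gave 128 calls, 72 with a pseudocount of 0.1, 59 without the filter, 77 without a trend and 40 to 84 with a library left out. Depth limits *Selenop*, *Selenom* and *Selenoh* most, which rest on fewer than 10 fragments in some libraries.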
